A study of Mus musculus with 6 samples.

Results

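The genes described here make the enzymes, chaperones and carriers that turn a newly made collagen chain into a crosslinked fibre, and they were followed in the skull roof of mice that express a mutant collagen X. The set was a list of 34 mouse genes chosen by name for their known roles. A gene was measured through the probe sets that the platform annotation gives to that gene alone, and where there were several, through the one with the highest mean log2(signal + 16) over the 5 distinct arrays. This gave a probe set for 30 of the 34 genes. Of these, 29 lay above the filter on dim probe sets (a mean signal of about 61.9) and were tested, among 12859 genes tested in all. Colgalt2 lay below the filter. Fkbp10, Adamts2 and Adamts14 had no probe set under their own symbol in the annotation used and were not analysed here, and the probe sets of Loxl2 are annotated to Gm21451 as well.

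The animals were 10 days old. The 13del-tg mice carry a Col10a1-13del transgene and are labelled as having bone overgrowth, and their wild-type littermates, called controls here, served for comparison. Parietal bones were taken from both, and the labels list 3 biological replicates of each of the 2 genotypes, 1 Affymetrix array each. The labels give neither the promoter of the transgene, nor the number of founder lines, nor whether animals were pooled. One array appears under both genotypes, since the columns of 13del-tg 1 and control 1 hold equal values at 45101 of 45101 probe sets. That array, called the shared array below, entered no comparison, and its value is given apart. The comparison is therefore 13del-tg 2 and 3 against controls 2 and 3, and with 2 arrays in each group an exact permutation test cannot give a p below 0.333.

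Collagen chains are modified inside the endoplasmic reticulum while they fold. Prolines are hydroxylated, which stabilises the helix, and lysines are hydroxylated and partly glycosylated, which later fixes the kind of crosslink that can form. Folded procollagen leaves in large COPII carriers, loses its propeptides outside the cell and is crosslinked by lysyl oxidases. In bone the main substrate is collagen I, and inherited loss of many of these genes in humans causes brittle bones.

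Some facts about the arrays bear on the values below. Col10a1 had an intensity of 15689 and 11584 in 13del-tg 2 and 3, against 149.8 and 158.2 in controls 2 and 3 and 152.2 on the shared array. Xist, which is transcribed in females, gave 57.6 and 15206 in 13del-tg 2 and 3 and 55.6 and 84.5 in controls 2 and 3, so 13del-tg 3 was the only compared array with a female pattern. Bone markers were bright: 7 of 11 osteoblast genes of a marker list were tested, with a summed intensity of 188671 and 205500 in 13del-tg 2 and 3, against 165435 and 187528 in controls 2 and 3. Of these 7, 5 had a positive difference, where 41.2% of all genes did, and 2 a negative one. Both 13del-tg arrays lay above both controls for 2 of them, where 13.4% of all genes did so. Skeletal muscle genes summed to 103441 and 78487 in 13del-tg 2 and 3, against 73754 and 13718 in controls 2 and 3, so control 3 held far less muscle signal than the other arrays. Erythroid genes (4 of 8 tested) summed to 2979 and 3930 in 13del-tg, against 11477 and 13725 in controls, and none of 7 osteoclast genes had a positive difference. Of 3 tested neuron markers, Snap25 was the one that passed the threshold, with 18.5 and 33.4 in 13del-tg against 462.1 and 733.0 in controls (adjusted p 0.0402 by limma), and Syt1 had 154.5 and 92.3 in 13del-tg against 245.6 and 429.7 in controls. The remaining neuron marker, Stmn2, had 342.2 and 294.8 in 13del-tg against 336.3 and 265.9 in controls, with overlap and a log2 difference of 0.082. In such bulk samples, a change in the number of cells of a type cannot be told apart from a change in RNA per cell. The part of cell content or sex in the differences below was not tested.

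None of the 29 tested genes passed the threshold of an adjusted p under 0.05 by limma, with adjusted p-values from 0.697 to 0.995. At an unadjusted p under 0.05, 1 was higher (P4ha2) and 1 was lower (P3h2) in 13del-tg. Over all 12859 genes, 0.0156% passed the adjusted threshold as higher and 0.0467% as lower in 13del-tg, and 1.49% were higher and 5.31% lower at the unadjusted threshold. Both 13del-tg arrays lay above both controls for 12 of the 29 genes, where 13.4% of all genes did so, and below both controls for 5, where 26.3% of all genes did so. The differences, 13del-tg minus control on the log2 scale, were positive for 20 of 29 genes, where 41.2% of all genes were positive. The median of the set was 0.070, while the median of all genes was -0.074. This median sign rests on scaling: it was -0.0018 with quantile normalization and 0.18 with each array centred on its median, when the median of all genes was -0.0085 and 0.034. The median absolute genotype difference was 0.23 in the set, against 0.17 between the 13del-tg arrays and 0.20 between the controls. Over all genes these values were 0.23, 0.29 and 0.26. A difference of 2-array means varies less than a difference of single arrays, so the genotype value is not on the same scale as the others. For 13 of the 29 genes the genotype difference was smaller than its own standard error. Leaving out 1 array moved the difference by over 1.5 times for 22 of the 29 genes. The other 7 were P4ha1, P4ha2, P3h2, Fkbp14, Sec24d, Kdelr2 and Pcolce.

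**Figure D1:**
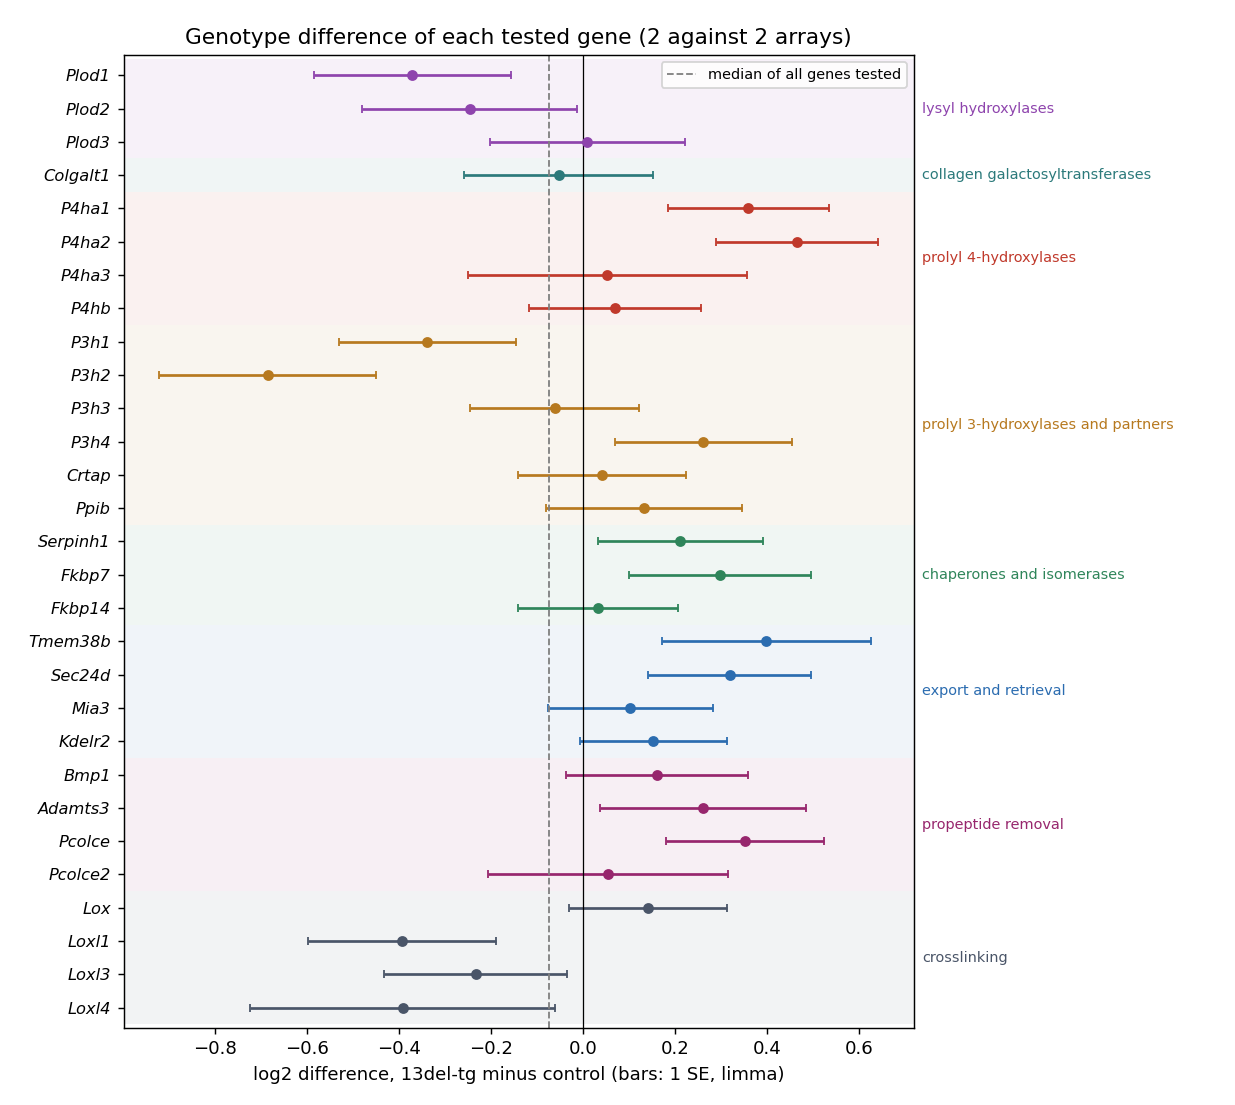
Log2 difference (13del-tg minus control, 2 against 2 arrays) of the 29 tested genes, grouped by role; bars are 1 standard error from limma and the dashed line marks the median of all genes tested, -0.074. P4ha2 at 0.47 and P3h2 at -0.68 are the extremes, and the standard errors run from 0.16 to 0.33.

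All 4 prolyl 4-hydroxylase genes had positive differences, and none passed the adjusted threshold. P4ha2 and P4ha1 encode catalytic subunits of the enzyme that makes 4-hydroxyproline, which keeps the collagen helix stable at body temperature. P4ha2 had an intensity of 3913.7 and 4261.9 in 13del-tg 2 and 3, against 3010.2 and 2897.4 in controls 2 and 3, with 2769.5 on the shared array. Both 13del-tg arrays lay above the controls and the shared array, and the controls differed little from each other. The log2 difference was 0.47 (SE 0.18), a 1.38-fold level, with an unadjusted p of 0.0334 and an adjusted p of 0.715. P4ha1 had 3641.2 and 3461.9 in 13del-tg, against 2756.4 and 2769.9 in controls and 2641.7 on the shared array. Its log2 difference was 0.36 (SE 0.18), again without overlap between the groups, and leaving out any 1 array kept it between 0.32 and 0.40. A dimmer P4ha1 probe set did overlap, with 2186.8 and 1067.6 in 13del-tg against 1230.1 and 1610.1 in controls, and a difference of 0.12. P4hb encodes protein disulphide isomerase, the beta subunit shared by all these enzymes, and had 17021 and 20842 in 13del-tg against 16701 and 19269 in controls. Its difference, 0.070 (SE 0.19), became -0.11 with quantile normalization. The third catalytic subunit gene, P4ha3, had 362.8 and 478.9 in 13del-tg against 503.1 and 319.1 in controls, with each group spanning much of the other.

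The prolyl 3-hydroxylase genes did not share a direction. P3h2, whose product acts mainly on collagen IV of basement membranes, had the largest difference of the set. Its intensity was 301.0 and 293.8 in 13del-tg 2 and 3, against 502.4 and 473.2 in controls 2 and 3, and 416.6 on the shared array. The arrays of each genotype were close together and the shared array lay between the groups. The log2 difference was -0.68 (SE 0.24), a 0.622-fold level, with an unadjusted p of 0.0229 and an adjusted p of 0.697, and it stayed between -0.73 and -0.64 when any 1 array was left out. P3h1, the enzyme that 3-hydroxylates collagen I in bone, had 2159.8 and 1842.4 in 13del-tg, against 2415.0 and 2639.0 in controls and 1730.5 on the shared array, a difference of -0.34 (SE 0.19). A dimmer P3h1 probe set had -0.11, with overlapping groups.

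On their brightest probe sets, the partners of P3h1 had small differences. Crtap, which holds P3h1 in a complex, had 10878 and 12141 in 13del-tg against 10187 and 12231 in controls, a difference of 0.042 (SE 0.18) that was -0.12 with quantile normalization. Ppib, the cyclophilin of that complex, had 24397 and 34186 in 13del-tg against 24527 and 28284 in controls. Its difference was 0.13 (SE 0.21) and -0.070 with quantile normalization, and 13del-tg 3 was the highest array. Another Ppib probe set, nearly as bright, had 22882 and 32258 in 13del-tg against 22034 and 21855 in controls. Its groups did not overlap, and its difference was 0.31. P3h3 and P3h4 belong to another complex, which in mice helps lysyl hydroxylase 1 to act. P3h4 had 4116.3 and 5187.3 in 13del-tg against 3899.5 and 3799.7 in controls (0.26, SE 0.19), without overlap, and its difference was 0.096 without 13del-tg 3 and 0.43 without 13del-tg 2. P3h3 had 2138.4 and 2266.3 in 13del-tg against 2199.8 and 2399.0 in controls (-0.061, SE 0.18), with overlap. Over the 6 genes of this group 3 differences were positive and 3 negative.

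**Figure D2:**
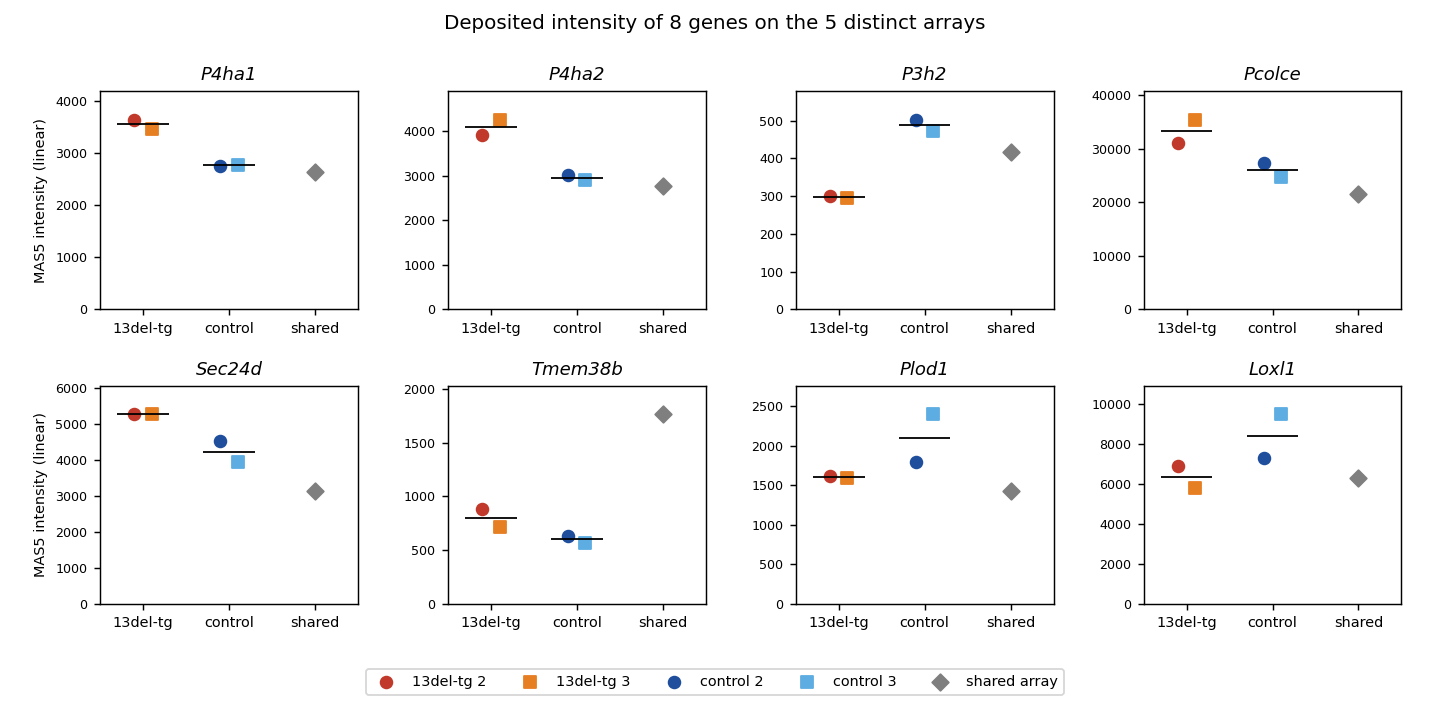
Deposited MAS5 intensity (linear axis from 0) of 8 genes on each of the 5 distinct arrays, with 13del-tg 2 and 3 at the left, controls 2 and 3 in the middle and the shared array at the right; horizontal lines are the means of 2 arrays. P4ha1, P4ha2, Pcolce, Sec24d and Tmem38b lie higher on both 13del-tg arrays than on both controls, P3h2, Plod1 and Loxl1 lie lower, and Tmem38b reaches 1768.5 on the shared array.

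Of the 4 tested genes that hydroxylate or glycosylate lysine, 3 had negative differences and 1 lay below both controls, while 58.8% of all genes had a negative difference and 26.3% lay below both controls. None of the 4 passed the threshold. Plod1, which hydroxylates lysines of the collagen helix, had 1615.2 and 1583.5 in 13del-tg 2 and 3, against 1789.7 and 2397.7 in controls 2 and 3, with 1430.3 on the shared array. The groups did not overlap, but the controls were farther from each other than control 2 was from the 13del-tg arrays. The log2 difference was -0.37 (SE 0.21), -0.16 without control 3 and -0.58 without control 2. Plod2, which hydroxylates the telopeptide lysines that give bone its crosslinks, was read by a pair of kept probe sets. The brighter had 1702.4 and 1405.9 in 13del-tg against 2156.6 and 1565.2 in controls (-0.25, SE 0.23), with overlap, and its difference was -0.017 without control 2 and -0.47 without control 3. The other had 857.8 and 711.1 in 13del-tg against 1196.5 and 1497.9 in controls, without overlap, and a difference of -0.77. On the shared array they read 2369.6 and 1421.6. Plod3, whose product can also add sugar to hydroxylysine, had 1487.2 and 1571.2 in 13del-tg against 1337.0 and 1721.8 in controls, a difference of 0.011 (SE 0.21). Colgalt1, the galactosyltransferase of hydroxylysine, had 2925.5 and 2556.0 in 13del-tg against 2509.6 and 3202.9 in controls (-0.052, SE 0.21), and the sign turned with arrays centred on the median (0.056). Colgalt2 stayed at 52.3 and 67.2 in 13del-tg and 16.2 and 69.0 in controls, too dim for the filter.

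At the end of the pathway, lysyl oxidases convert lysine and hydroxylysine to the aldehydes that crosslink fibres. Loxl1, best known for its part in elastic fibres, had 6919.9 and 5808.2 in 13del-tg 2 and 3, against 7300.8 and 9501.2 in controls 2 and 3, and 6324.2 on the shared array. The groups did not overlap, though 13del-tg 2 was close to control 2. The log2 difference was -0.39 (SE 0.21), and a dimmer probe set had -0.43. Loxl3 had 1515.4 and 1518.4 in 13del-tg against 1621.3 and 1965.3 in controls (-0.23, SE 0.20), also without overlap. Loxl4 had 782.6 and 476.7 in 13del-tg against 635.2 and 1023.3 in controls (-0.39, SE 0.33), with overlap, and its difference was -0.043 without 13del-tg 3, -0.054 without control 3 and -0.74 without 13del-tg 2. Lox, the main enzyme for collagen I, had 20106 and 22460 in 13del-tg against 18202 and 20372 in controls. Its difference was 0.14 (SE 0.17), and it was -0.053 with quantile normalization and -0.064 with the mean of its probe sets. For Plod1, Loxl1, Loxl3 and Loxl4, control 3 was the highest of the 4 compared arrays. Control 3 was also the array with the least muscle signal, and whether this moves these genes was not tested.

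Chaperones and isomerases of procollagen had small positive differences. Serpinh1 encodes HSP47, which binds folded procollagen and travels with it to the Golgi. It had 15865 and 17888 in 13del-tg 2 and 3, against 13382 and 15791 in controls 2 and 3, and 11110 on the shared array, and the groups were only just apart. The log2 difference was 0.21 (SE 0.18), and the other probe set, with 18376 and 15381 in 13del-tg against 11483 and 12953 in controls, had 0.46. Fkbp7, a peptidyl-prolyl isomerase of the endoplasmic reticulum, had 8099.3 and 10707 in 13del-tg against 7392.0 and 7747.0 in controls (0.30, SE 0.20), and its value was 0.098 without 13del-tg 3. Fkbp14, a related isomerase, had 3307.6 and 3296.6 in 13del-tg against 3249.8 and 3201.8 in controls, a difference of 0.034 (SE 0.17) that was -0.024 with quantile normalization.

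The export and retrieval group held Sec24d, Mia3, Kdelr2 and the ion channel gene Tmem38b. All 4 were higher on both 13del-tg arrays than on both controls, where 13.4% of all genes were. Sec24d encodes a cargo adaptor of the COPII coat that procollagen needs to leave the endoplasmic reticulum. It had 5274.5 and 5272.7 in 13del-tg 2 and 3, against 4519.8 and 3946.5 in controls 2 and 3, and 3133.6 on the shared array, a log2 difference of 0.32 (SE 0.18). Kdelr2, a receptor that returns escaped chaperones to the endoplasmic reticulum, had 25434 and 26064 in 13del-tg against 23270 and 23013 in controls (0.15, SE 0.16), and its difference was -0.0018 with quantile normalization. Mia3, the exit-site receptor TANGO1, had 2957.8 and 3082.9 in 13del-tg against 2697.1 and 2925.0 in controls (0.10, SE 0.18). One of its dimmer probe sets went the other way, at -0.42 from intensities of 67.2 and 58.5 in 13del-tg and 62.4 and 125.5 in controls, and the mean over its probe sets was -0.042.

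Tmem38b, an ion channel of the endoplasmic reticulum that balances calcium release, stood apart from the rest. It had 880.6 and 715.9 in 13del-tg 2 and 3, against 633.7 and 564.6 in controls 2 and 3, a log2 difference of 0.40 (SE 0.23). On the shared array it read 1768.5, above all 4 other arrays, and the other 3 kept probe sets were also highest there, at 1194.2, 718.6 and 136.1. Counting that array as a control gave a difference of -0.11, and counting it as 13del-tg gave 0.78. The dimmest of the 4 probe sets had a negative difference of -0.21.

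Removal of the propeptides outside the cell is done by BMP1 at one end of procollagen and by ADAMTS enzymes at the other. Pcolce, which encodes an enhancer of BMP1, had 31002 and 35392 in 13del-tg 2 and 3, against 27309 and 24632 in controls 2 and 3, and 21507 on the shared array. The groups did not overlap on either of its probe sets, with log2 differences of 0.35 (SE 0.17) and 0.28. Bmp1 had 3020.7 and 3518.6 in 13del-tg against 2647.6 and 3202.1 in controls (0.16, SE 0.20), with overlap, and a dimmer probe set had -0.20. Adamts3, a procollagen N-proteinase, had 669.1 and 583.8 in 13del-tg against 543.9 and 495.0 in controls (0.26, SE 0.22), without overlap. Pcolce2, a second enhancer, had 1219.6 and 1258.9 in 13del-tg against 944.6 and 1502.6 in controls (0.055, SE 0.26), with the 13del-tg arrays inside the range of the controls.

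**Figure D3:**
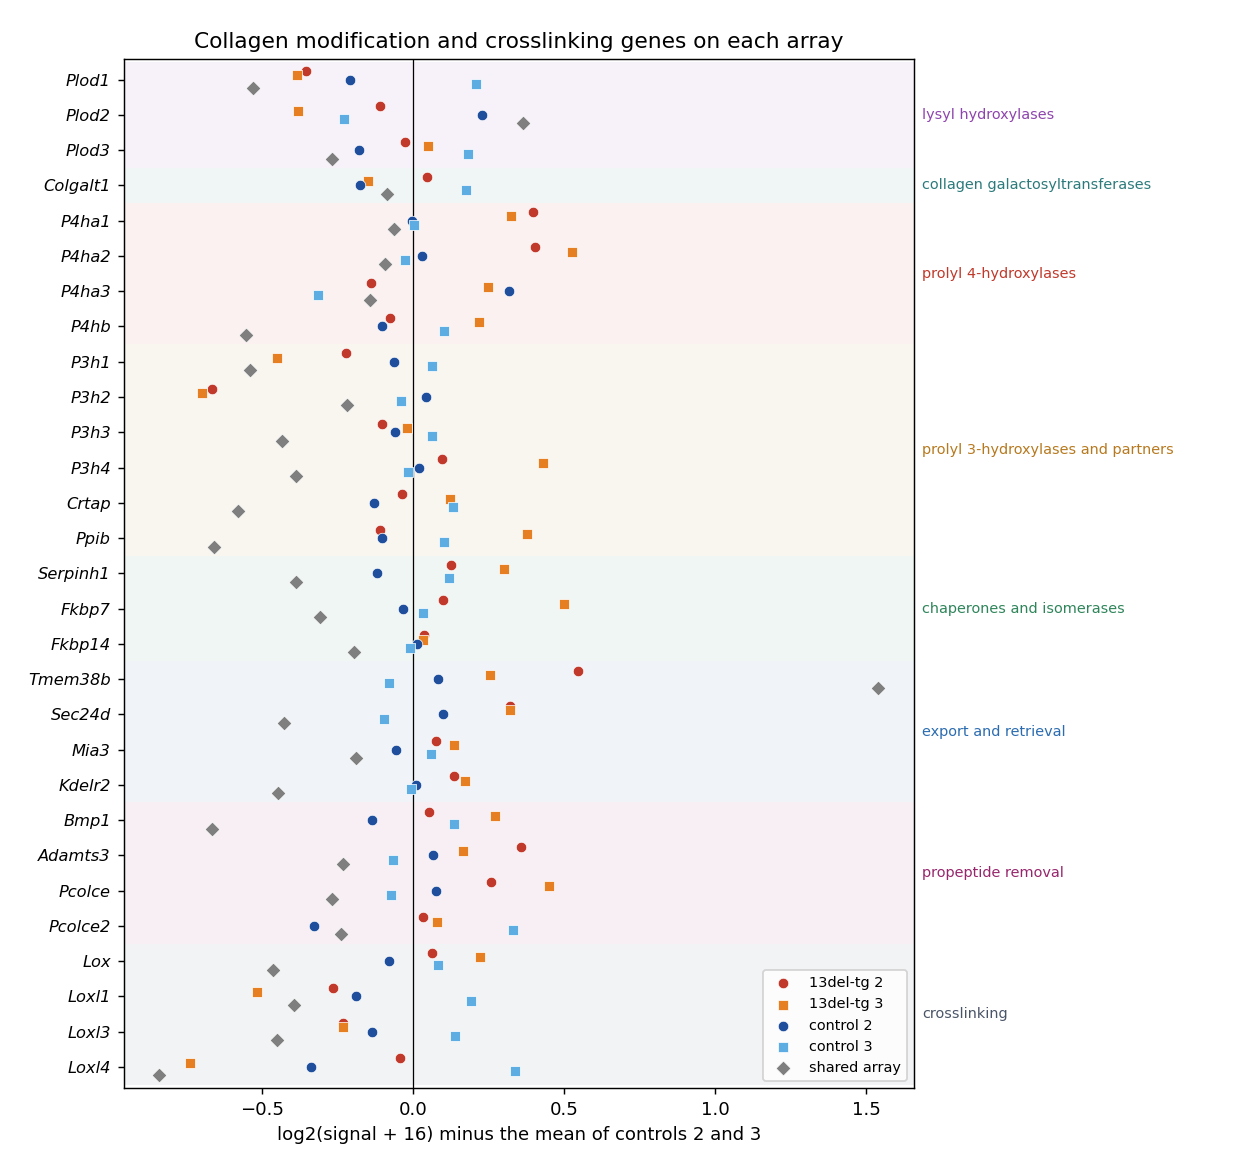
Log2(signal + 16) of each tested gene on each array, minus the mean of controls 2 and 3, with genes grouped by role. The 2 13del-tg arrays lie right of both controls for 12 of 29 genes and left of both for 5. Over all genes these shares are 13.4% and 26.3%. The grey diamonds of the shared array lie left of all 4 other arrays for 22 genes, against 24.3% of all genes. Tmem38b lies far right there, at 1.54.

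Because many of these genes serve the endoplasmic reticulum, their promoters were searched for letters known from stress-response elements. RefSeq windows of GRCm38.p6, from 250 bases before to 50 bases after the start, were found for 22 of the 34 genes, as 25 windows. The motif TGACGTGG, a core bound by stress-response factors in other work, occurred on either strand in 2 of the 25 windows and in 0.676% of 32851 windows in the whole table. The related TGACGTCA occurred in none of the 25, and in 1.79% of all windows. The element CCAAT, 9 bases of any kind, then CCACG occurred in none of the 25 and in 0.119% of all windows, and the element ATTGG, 1 base of any kind, then CCACG in none and in 0.0365%. The letters CCACG also begin TGACGTGG when it is read on the opposite strand, so these motifs overlap in part. Both genes with the motif, Sec24d and Adamts3, lay above both controls on both 13del-tg arrays. So did 12 of the 29 tested genes, these 2 included, and 13.4% of all genes. A link between the motif and the differences was not tested. Because they hold the motif, their 250 bases before the start are shown, 5′ to 3′ along the gene, with the motif in capitals. The Sec24d stretch is chr3:123267246-123267495 on the plus strand, with the motif at bases -26 to -19 from the start. The Adamts3 stretch is chr5:89883335-89883584 on the minus strand, with the motif at bases -225 to -218.
Sec24d: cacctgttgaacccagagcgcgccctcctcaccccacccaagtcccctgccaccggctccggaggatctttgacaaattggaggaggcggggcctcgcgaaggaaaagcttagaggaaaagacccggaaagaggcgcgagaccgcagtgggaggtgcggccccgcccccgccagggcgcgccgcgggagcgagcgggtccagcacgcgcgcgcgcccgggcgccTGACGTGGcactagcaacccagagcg
Adamts3: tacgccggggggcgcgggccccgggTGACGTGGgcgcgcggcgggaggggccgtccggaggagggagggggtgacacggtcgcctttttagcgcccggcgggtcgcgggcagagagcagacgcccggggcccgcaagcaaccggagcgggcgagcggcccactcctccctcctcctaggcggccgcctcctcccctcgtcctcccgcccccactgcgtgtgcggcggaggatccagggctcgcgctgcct
A match of letters is a description and not evidence of binding in this tissue.

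Several kept probe sets were present for 14 of the tested genes, which gives a further reading of the same arrays. In 10 of these 14 the probe sets agreed in sign, among them Plod2, P4ha1, P3h1, Serpinh1, Pcolce, Loxl1 and Loxl4. In Bmp1, Lox, Mia3 and Tmem38b they did not, and in each of these 4 the probe set of opposite sign was the dimmest of those kept. For Lox it read 38.4 and 59.1 in 13del-tg and 83.3 and 59.4 in controls, far below the brightest. Loxl2 had its brighter shared-symbol probe set at 6043.2 and 4782.6 in 13del-tg against 6131.2 and 5422.1 in controls, with overlap, and the other at 196.0 and 189.8 in 13del-tg against 265.9 and 289.0 in controls, without overlap.

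**Figure D4:**
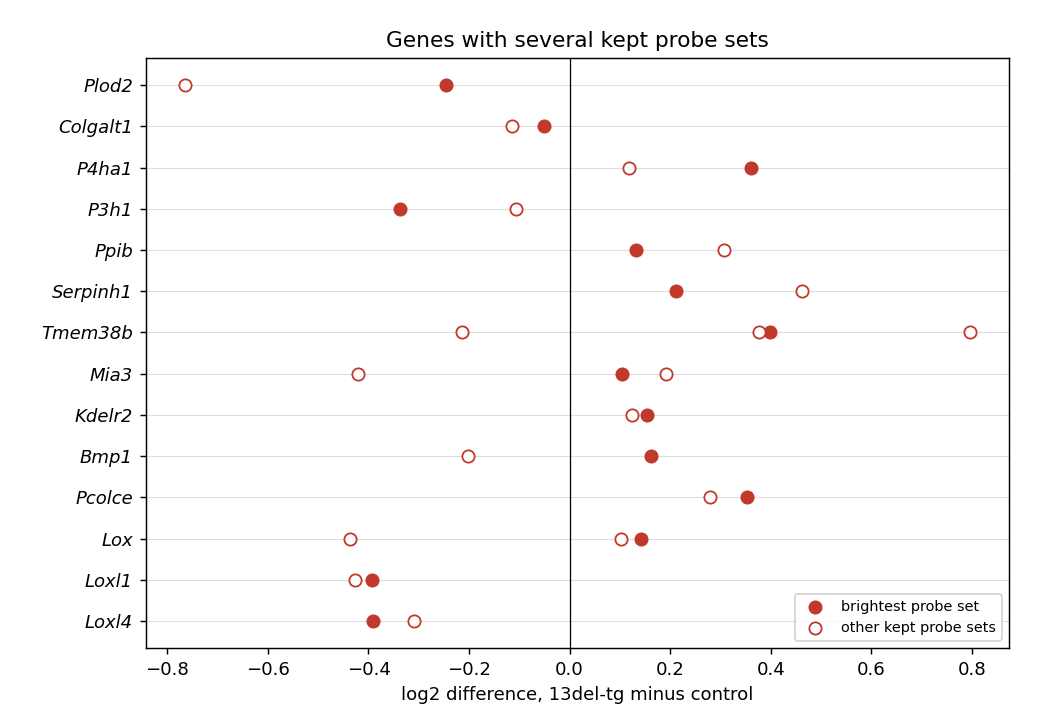
Log2 difference (13del-tg minus control) of every kept probe set of the 14 genes that have several; filled points are the brightest probe set of a gene and open points the others. Points of 10 genes lie on 1 side of 0, and those of Tmem38b, Mia3, Bmp1 and Lox lie on both.

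The substrates of these enzymes were compared next. Of 11 fibrillar collagen chains, 8 had positive differences, where 41.2% of all genes did. The median of the 11 chains was 0.087 (-0.028 with quantile normalization), and none passed the threshold or had an unadjusted p under 0.05 by limma. Col1a1 had 46123 and 48236 in 13del-tg against 42618 and 46275 in controls, a difference of 0.087 (SE 0.16). Those with the smallest unadjusted p were Col2a1 of cartilage (-2.03, SE 1.05), Col11a1 (0.35, SE 0.19), Col11a2 (-0.40, SE 0.30) and Col1a2 (0.20, SE 0.19). The value of Col11a2 ran from -0.80 to 0.0006 and that of Col2a1 from -3.64 to -0.41 when 1 array was left out. Col2a1 had 3803.3 and 391.0 in 13del-tg against 10714 and 2384.9 in controls, and is itself 1 of the 8 chondrocyte markers, which summed to 9380 and 2209 in 13del-tg and 25717 and 6076 in controls. Chondrocyte signal thus differed several-fold between arrays of the same genotype, and its part in the values of the set was not tested.

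General folding enzymes of the endoplasmic reticulum leaned more clearly one way. Of 16 tested, 15 had positive differences with a median of 0.28 (0.25 with quantile normalization), and both 13del-tg arrays lay above both controls for 10. Over all genes tested, 41.2% had a positive difference and 13.4% lay above both controls. None of the 16 passed the adjusted threshold by limma. An unadjusted p under 0.05 by limma was reached by 3 genes, each higher in 13del-tg, where 1.49% of all genes were. These were Creld2 (0.75, SE 0.24), Hsp90b1 (0.56, SE 0.19) and Hspa5 (0.63, SE 0.22), followed by Manf (0.50, SE 0.22). Hspa5, the chaperone BiP, had 14798 and 21624 in 13del-tg against 11868 and 11172 in controls. Of 15 tested COPII and export genes, 12 had positive differences with a median of 0.25, against a share of 41.2% of all genes. An unadjusted p under 0.05 by limma was reached by 1, in the lower direction, where 5.31% of all genes were. This was Klhl12, a ubiquitin ligase adaptor that helps to enlarge COPII coats, at 429.7 and 451.7 in 13del-tg against 598.0 and 740.6 in controls (-0.58, SE 0.23). The retrieval receptors Kdelr1 (0.41, SE 0.18) and Kdelr3 (0.40, SE 0.18) and the coat gene Sec23a (0.42, SE 0.19) came next. Of 19 tested other genes of collagen biosynthesis, 10 had positive differences with a median of 0.029, against 7 and a median of -0.045 with quantile normalization. Mmp14, the membrane collagenase, had the smallest unadjusted p, with 10039 and 8110.5 in 13del-tg against 12455 and 14895 in controls (-0.59, SE 0.19). Fkbp2, another isomerase, had 0.51 (SE 0.21), the ascorbate transporter Slc23a2 had -0.49 (SE 0.22) and the peroxidasin gene Pxdn 0.53 (SE 0.30). Pxdn had 3463.3 and 3281.8 in 13del-tg against 3192.1 and 1703.7 in controls, and its difference ran from 0.078 to 0.98 when 1 array was left out. No gene of these lists passed the adjusted threshold by limma.

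**Figure D5:**
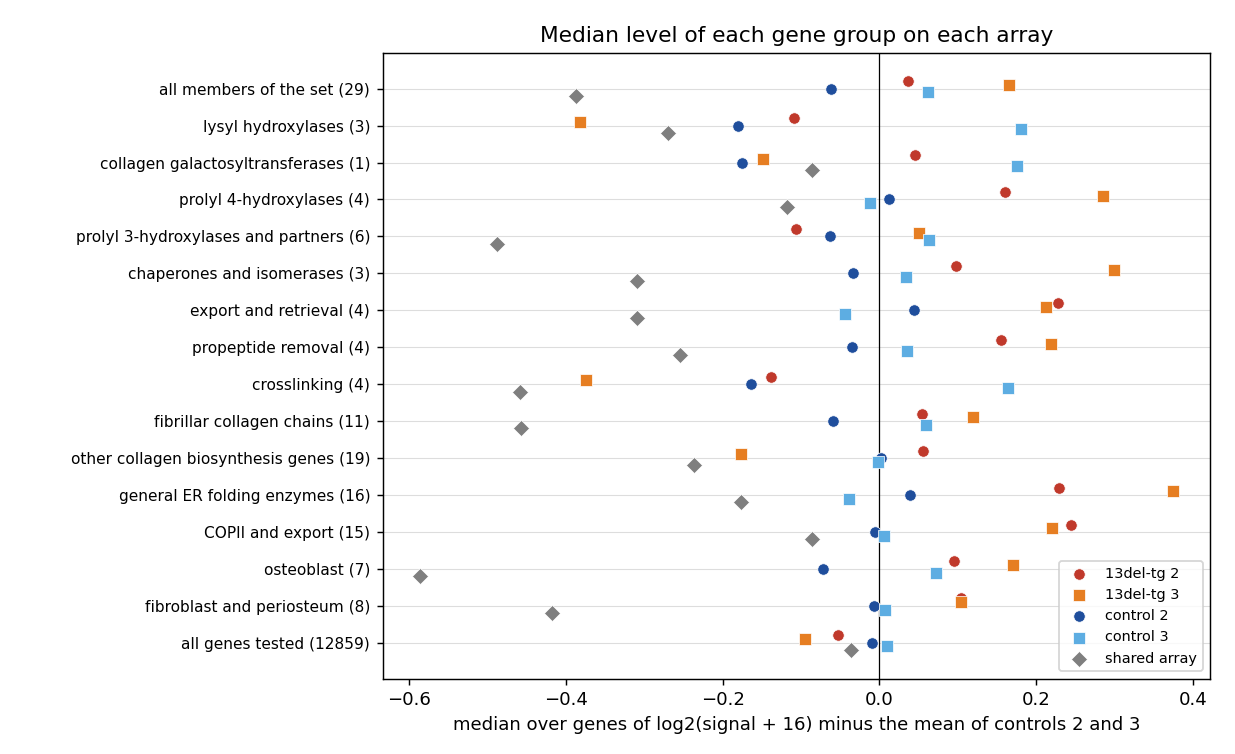
Median over genes of log2(signal + 16) on each array, minus the mean of controls 2 and 3, for the whole set, its role groups, related lists and bone cell markers (number of tested genes in brackets). Both 13del-tg arrays lie right of both controls for prolyl 4-hydroxylases, chaperones and isomerases, export and retrieval, propeptide removal, general folding enzymes, COPII genes, osteoblast markers and fibroblast markers, and the shared array lies at -0.39 for the whole set.

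The shared array was low for most of the set. It lay below all 4 other arrays for 22 of 29 genes and above all 4 for 2, Plod2 and Tmem38b, where 24.3% of all genes lay below and 25.6% above. The median of the set on that array was -0.39 against the mean of the controls, while it was 0.036 and 0.17 in 13del-tg 2 and 3 and -0.062 and 0.062 in controls 2 and 3. Fibrillar collagen chains had a median of -0.46 there and osteoblast markers -0.59, and all 7 tested osteoblast markers were lowest on that array. P4ha1 and P4ha2 were close to the controls on it, at -0.064 and -0.092, whereas Bmp1, Ppib and Loxl4 were well below, at -0.67, -0.66 and -0.84. Some other marker lists were below the controls there too, with medians of -0.42 for fibroblast, -0.54 for osteoclast, -0.67 for erythroid and -1.97 for neuron genes. For erythroid genes the 13del-tg arrays were lower still, with medians of -2.89 and -1.89 in 13del-tg 2 and 3. Others were not, with medians of 2.07 for skeletal muscle, 0.15 for endothelial and 0.028 for chondrocyte genes. The skeletal muscle medians were 1.88 and 1.19 in 13del-tg 2 and 3, and 1.31 and -1.31 in controls 2 and 3. The part of cell content in these values was not tested. The labels give that array both genotypes, and Col10a1 read 152.2 on it, within the range of controls 2 and 3 (149.8 and 158.2) and far below 13del-tg 2 and 3. Snap25 read 24.2 on it, within the range of 13del-tg 2 and 3 (18.5 and 33.4) and far below controls 2 and 3 (462.1 and 733.0). Which genotype that array came from was not tested.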

How the data were processed

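RNA from parietal bones, cryosectioned after embedding, was extracted with TRIZOL, and biotin-bearing antisense RNA was made from it, per the labels' protocols. The authors deposited linear intensities, with 1 value for each probe set of an array, and the submitters' processing notes name MAS5 without a version. The trimmed mean of the intensities was 500.003 throughout, as after scaling to a common target. No detection calls or scan dates were used.

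Intensities were taken as log2(signal + 16), without further normalization. Probe sets with 1 gene symbol (34945 of 45101) and a mean at or above the 40th percentile were kept, and the brightest of each gene gave 12859 genes. Differences were tested with limma 3.58.1 in R 4.3.3 (lmFit, eBayes with trend), as a 2-sided test with p-values adjusted by Benjamini-Hochberg across the 12859 genes, and the fit had 2 residual and 5.01 prior degrees of freedom. Because of the added 16, folds taken from log2(signal + 16) are too small for dim genes. The number of arrays limits the precision, and nothing shows that replicates were more than separate samples. The p-values rest on the spread between these samples, with each gene's variance moderated toward that of genes of like brightness. The code was tested on simulated data. Normalization, pseudocount, filter, probe set rule, moderation, the shared array, a replicate block and each array left out were tried as alternatives. The members, lists and motifs were chosen with earlier results of these data known. All members were named, with Col10a1 and, of each related list, up to 4 genes with the smallest unadjusted p. Xist, Snap25, Syt1, Stmn2, Col1a1 and the Loxl2 readings were added after their values were seen. Probe sets with several symbols entered no test. Protein sequences were not used here.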

Additional observations from a re-analysis of the deposited data

How the results depend on the processing

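No tested gene of the set passed the adjusted threshold under any of the 17 alternatives, with a lowest adjusted p of 0.188 (with the replicate block), and the lowest adjusted p of each other alternative lay between 0.498 and 1. Of 493 values under these alternatives, 457 kept their direction, and 15 of 29 genes kept it throughout. The filter, moderation and replicate block alternatives reuse the same probe sets and arrays, so they cannot change a difference. Their values are among the 457 and say nothing about stability. With quantile normalization P4hb turned to -0.11, Crtap to -0.12, Ppib to -0.070, Fkbp14 to -0.024, Kdelr2 to -0.0018 and Lox to -0.053. With arrays centred on the median Colgalt1 turned to 0.056 and P3h3 to 0.047. With the mean of probe sets Mia3 turned to -0.042, Bmp1 to -0.020 and Lox to -0.064. With the shared array as control only, P3h3 turned to 0.084 and Tmem38b to -0.11. With it as 13del-tg only, Plod3 turned to -0.083, P4ha3 to -0.012, P4hb to -0.14, Crtap to -0.17, Ppib to -0.13, Fkbp14 to -0.044, Kdelr2 to -0.047, Bmp1 to -0.11, Pcolce2 to -0.043 and Lox to -0.060. When 1 array was left out, Plod3 ran from -0.17 to 0.19, Colgalt1 from -0.23 to 0.12, P4ha3 from -0.26 to 0.37, P4hb from -0.076 to 0.22, P3h3 from -0.12 to 0.0011, Crtap from -0.090 to 0.17, Ppib from -0.11 to 0.38 and Pcolce2 from -0.27 to 0.39. The cause of these turns was not tested.

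The median of the set was 0.18 with arrays centred on the median, 0.17 when the shared array was a control only, -0.047 with it as 13del-tg only, and ran from 0.030 to 0.17 when 1 array was left out. The counts of all genes past the adjusted threshold, 2 higher and 6 lower in 13del-tg by limma, were unstable: 1 and 1 with a pseudocount of 1, a 60th percentile filter or quantile normalization, 2 and 3 with a pseudocount of 64, 1 and 0 without a filter (265 and 930 at an unadjusted p under 0.05) or without the trend (149 and 781), 2 and 23 with robust eBayes, 1 and 0 when the shared array was a control only (150 and 648), 0 and 7 with it as 13del-tg only (362 and 534) and 0 and 0 with it under both labels (17 and 175). Leaving out 1 array gave 1 to 182 higher and 0 to 50 lower, with the highest counts without control 2 and the 0 without 13del-tg 3 (126 and 535 at an unadjusted p under 0.05). The replicate block, by the number in the labels, gave 271 higher and 338 lower. Same-numbered arrays deviated together with a correlation of 0.273 over genes, and with 2 pairs and no label that ties the numbers to litters or batches these arrays share only a number. With 2 arrays in each group only large changes can pass, and dim probe sets are the least certain.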

Other observations

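Control 3 was the highest of the 4 compared arrays for 10 of the 29 genes and 13del-tg 3 for 11, whereas 13del-tg 2 was highest for 5 and control 2 for 3. Over all genes tested these shares were 34.6% for control 3, 22.7% for 13del-tg 3, 20.9% for 13del-tg 2 and 21.9% for control 2. The summed intensity of the set, which its few brightest genes dominate, was 203712 and 230122 in 13del-tg 2 and 3, against 188843 and 203851 in controls 2 and 3, and 147739 on the shared array.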
